A study of Mus musculus with 6 samples.

Results

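The receptors of the common gamma chain cytokine family were examined in CD4+Lrig1+ and CD4+Lrig1- T cells from the mouse spleen. The 8 genes were listed by name and not by a rule on their values, though earlier results of these data were known. The list held *Il2ra*, *Il2rb* and *Il2rg*, which encode the alpha, beta and gamma chains of the IL-2 receptor, and *Il7r*, *Il4ra*, *Il15ra*, *Il21r* and *Il9r*. They were 8 of 45777 genes listed, and all 8 were among the 16123 genes that passed the filter on low counts. The cells were flow-sorted from female C57BL/6 mice at 7 weeks of age, with no treatment, allele or transgene named, and the groups differed in surface Lrig1, a transmembrane leucine-rich repeat protein. The labels list 3 samples of each group. The values are from 2 CD4+Lrig1+ and 2 CD4+Lrig1- libraries held in 2 tables, called set 1 and set 2 here, each with 1 library of either group. The sources do not say whether the libraries came from separate mice or pools of mice, or what a table shares, so p-values then measure only the spread between these samples.

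Cytokines of this family signal through receptors that share the gamma chain, the product of *Il2rg*. The gamma chain binds the kinase JAK3, and its signalling partner, which is the beta chain for IL-2 and IL-15, binds JAK1. Together they activate STAT transcription factors, mainly STAT5 for IL-2, IL-7, IL-9 and IL-15, STAT6 for IL-4 and STAT3 for IL-21. The beta and gamma chains form an IL-2 receptor of intermediate affinity that IL-15 also uses, and the alpha chain, CD25, converts it to the high-affinity form. Regulatory T (Treg) cells are known for abundant CD25 and little IL-7 receptor, whereas naive T cells depend on IL-7 for survival.

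The libraries held 44865070 to 59977951 estimated counts. Counts were summed per gene and scaled to the size of the library by the TMM method, in units called CPM. *Lrig1*, the sorted molecule, had 221 CPM in set 1 and 129 in set 2 of CD4+Lrig1+ T cells against 75.4 and 36.7 in CD4+Lrig1- T cells. The T cell identity genes summed to 4230 to 6605 CPM in all 4 libraries, with none at 0, and *Cd4* ranged from 924 to 1100. B cell markers were present at 98.3 and 391 summed CPM in CD4+Lrig1+ and 78.5 and 775 in CD4+Lrig1- libraries, and the lower value of each pair was in set 1. The log2 CPM of the genes, which are no independent replicates, correlated more closely between the groups within a set (0.960 and 0.959) than between the sets within a group (0.908 in each). The difference between the groups was therefore given in each set as well as over all 4 libraries.

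The IL-2 receptor chains followed separate patterns. *Il2ra* was 11.8-fold higher in CD4+Lrig1+ than in CD4+Lrig1- T cells in set 1 and 23.4-fold higher in set 2, *Il2rb* was 3.59-fold and 4.31-fold higher, and *Il2rg* lay within the spread between the sets. *Il2ra*, with gene ID 16184, spans bases 11642792 to 11693194 of chromosome 2 (GRCm38) and had 368 and 417 CPM in the CD4+Lrig1+ libraries of set 1 and set 2 and 31.1 and 17.8 CPM in the CD4+Lrig1- libraries. These levels came from 19137 and 23950 estimated counts against 1488 and 960. Both CD4+Lrig1+ libraries were far above both CD4+Lrig1- libraries, and the log2 difference over the 4 libraries was 4.01 ± 0.47 (SE, n = 2 per group). It stood at percentile 98.9 of the differences of all genes tested, whose median was -0.04. A non-coding gene, *Gm39760*, overlaps *Il2ra*, so reads in the shared stretch could belong to either. In bulk RNA a higher share of cells that express a gene and more RNA per cell cannot be told apart.

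*Il2rb* (gene ID 16185, chromosome 15 from 78479256 to 78511621) had 1030 and 1060 CPM in CD4+Lrig1+ and 287 and 246 CPM in CD4+Lrig1- T cells. The libraries of a group lay close together, and the groups did not overlap. The log2 difference was 1.97 ± 0.38. NK cells also carry the beta chain, and the NK cell markers summed to 50.01 and 118 CPM in CD4+Lrig1+ against 60.4 and 188 CPM in CD4+Lrig1- libraries. Of the 9 markers 8 were lower in both sets, and none was at 0. *Eomes* was higher (log2 ratios 2.51 and 2.16), and it made up 24.1 and 41.3 CPM of the CD4+Lrig1+ sums against 4.20 and 9.18 of the CD4+Lrig1- sums. The part of the NK cell markers in the *Il2rb* difference was not tested. *Il2rg* (gene ID 16186, chromosome X from 101264385 to 101268255) had 517 and 871 CPM in CD4+Lrig1+ and 544 and 1000 CPM in CD4+Lrig1- T cells. It varied more between the sets than between the groups, which overlapped, with a log2 ratio of -0.07 within set 1, -0.20 within set 2 and a difference of -0.15 ± 0.54 over the 4 libraries. Its sign was positive when set 1 lost its CD4+Lrig1+ library (0.21) or set 2 its CD4+Lrig1- library (0.36).

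**Figure D1:**
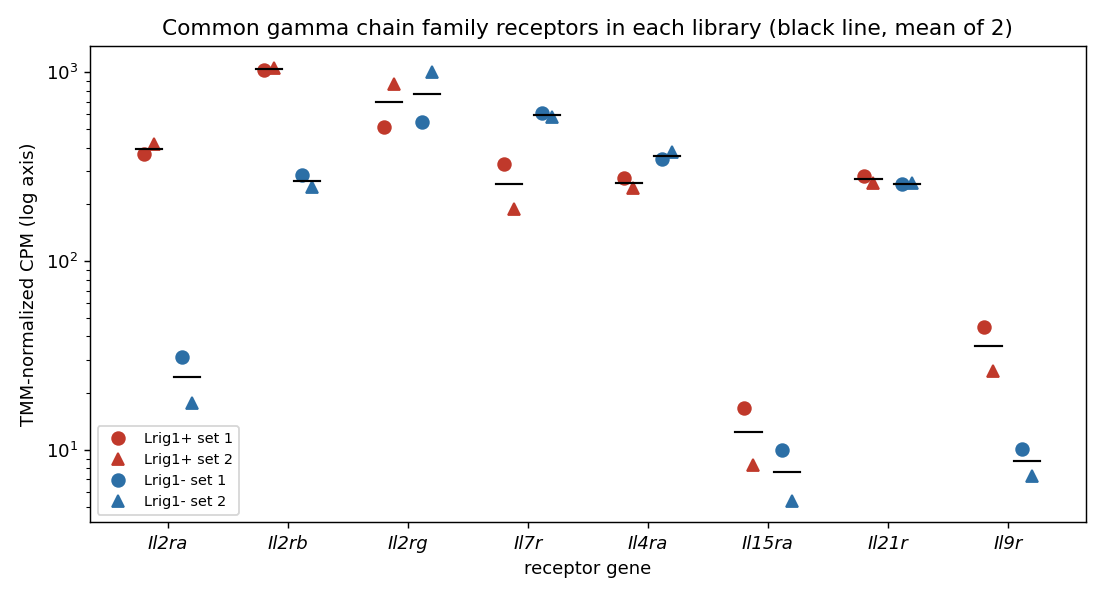
TMM-normalized CPM (log axis) of the 8 receptor genes in each library, with CD4+Lrig1+ in red, CD4+Lrig1- in blue, set 1 as circles, set 2 as triangles and the mean of the 2 libraries of a group as a black line. *Il2ra*, *Il2rb* and *Il9r* lie clearly higher in CD4+Lrig1+ T cells, *Il7r* lies lower, and *Il2rg* differs mainly between the sets.

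*Il7r*, the alpha chain of the IL-7 receptor and the most abundant of the gamma chain partners in CD4+Lrig1- T cells, went the other way. It (gene ID 16197, chromosome 15 from 9506159 to 9529941) had 326 and 190 CPM in CD4+Lrig1+ and 606 and 579 CPM in CD4+Lrig1- T cells, a level 1.86-fold lower in set 1 and 3.05-fold lower in set 2. The groups did not overlap, the CD4+Lrig1+ libraries differed more from each other than the CD4+Lrig1- libraries did, and the log2 difference was -1.20 ± 0.44. Markers of naive T cells moved with it. All 7 had lower CPM in the CD4+Lrig1+ library of each set, and together they summed to 3169 and 3946 CPM against 5354 and 7435, and their part in the *Il7r* difference was not tested.

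The opposed *Il2ra* and *Il7r* levels were also read as a ratio within each library. Log2 of *Il2ra* over *Il7r* CPM was 0.18 and 1.13 in the CD4+Lrig1+ libraries and -4.28 and -5.02 in the CD4+Lrig1- libraries. The mean difference was 5.31 on the log2 scale, and the groups were well apart. The exact two-sided permutation test over libraries gave p = 0.333, the smallest that 2 libraries against 2 allow.

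The sequences before the starts of these opposed genes are shown to let their letters be compared. NF-κB and STAT5 are known to act on *Il2ra*, and ETS family factors, GFI1 and FOXO1 on *Il7r*, in part from enhancers that lie outside these stretches. They are given in gene orientation from RefSeq (GRCm38.p6), with matches to the searched letters in capitals. The *Il2ra* stretch is chr2:11642542-11642791 on the plus strand, and the *Il7r* stretch is chr15:9529877-9530026 on the minus strand, part of which a predicted longer *Il7r* transcript covers.
Il2ra: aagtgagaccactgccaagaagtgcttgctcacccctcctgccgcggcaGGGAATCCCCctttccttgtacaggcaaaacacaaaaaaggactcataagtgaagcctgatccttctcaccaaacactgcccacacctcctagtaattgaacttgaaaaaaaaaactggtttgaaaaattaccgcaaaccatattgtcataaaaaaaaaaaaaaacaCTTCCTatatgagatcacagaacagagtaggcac
Il7r: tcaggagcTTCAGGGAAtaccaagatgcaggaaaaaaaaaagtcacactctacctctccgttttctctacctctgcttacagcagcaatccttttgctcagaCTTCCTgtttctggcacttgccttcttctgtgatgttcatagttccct

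Both stretches hold the ETS core AGGAAG on the opposite strand, 34 to 29 bases before the *Il2ra* start and 48 to 43 bases before the *Il7r* start. This short word is common, being in 29.5% of the 32851 RefSeq promoters over the same 250 bases. The *Il2ra* stretch alone of the pair holds the κB-like word of GGGAAT, any base and CCC, 201 to 192 bases before the start, which is in 0.152% of promoters, and the *Il7r* stretch alone holds the STAT word TTCNNNGAA, 142 to 134 bases before the start, which is in 7.02%. The FOXO word GTAAACA is in neither and in 3.17% of promoters. Both strands were searched, the 4 words were chosen with these sequences in view, no matches overlapped, and a match is not a measured binding site. Of the 8 receptor genes, 7 had a promoter entry. *Il2rb* had none. Of the others, *Il2rg*, *Il4ra* and 1 of the 2 *Il15ra* entries held the ETS core, *Il21r* held the FOXO word 38 to 32 bases before its start, and *Il9r* held none of the 4 words.

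The remaining receptors were *Il9r* and *Il15ra* at low levels and *Il4ra* and *Il21r* at intermediate ones. *Il9r*, the chain specific for IL-9 (gene ID 16199, chromosome 11 from 32187544 to 32205283), had 45.1 and 26.1 CPM in CD4+Lrig1+ and 10.2 and 7.30 CPM in CD4+Lrig1- T cells. It was thus 4.41-fold higher in set 1 and 3.57-fold higher in set 2, with no overlap and a log2 difference of 2.03 ± 0.44. This lay on 2346 and 1500 estimated counts against 488 and 394, some of which could come from the overlapping pseudogene *Gm12109*. Mast cells and innate lymphoid cells also express the IL-9 receptor. Their 8 markers summed to 149 and 118 CPM in CD4+Lrig1+ against 100.04 and 82.3 CPM in CD4+Lrig1- libraries, most of it from *Gata3*, which helper T cells express too. Of these markers 3 were higher and 2 lower in both sets, with *Il1rl1* higher (log2 ratios 1.40 and 1.68) and *Kit* lower (-2.29 and -1.70). The mast cell genes *Cpa3*, *Mcpt4* and *Fcer1a* had no counts in set 1, and in set 2 they had 5, 0 and 2 counts in the CD4+Lrig1+ and 26, 8 and 4 in the CD4+Lrig1- library. The part of these cells in the *Il9r* difference was not tested.

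*Il15ra*, the chain that presents IL-15 to the beta and gamma chains (gene ID 16169, chromosome 2 from 11705172 to 11733985), had 16.7 and 8.38 CPM in CD4+Lrig1+ and 10.004 and 5.41 CPM in CD4+Lrig1- T cells. The CD4+Lrig1+ library was higher within each set, by 0.74 and 0.63 on the log2 scale, but the groups overlapped across sets. Over the 4 libraries the log2 difference was 0.70 ± 0.56. Myeloid cells also express *Il15ra*, and the myeloid and dendritic cell markers summed to 59.8 and 224 CPM in CD4+Lrig1+ against 104 and 296 CPM in CD4+Lrig1- libraries. The list was split, with 4 of 11 markers higher in both sets, among them *Csf1r* (log2 ratios 1.05 and 1.03), 4 lower in both, among them *Siglech* (-1.73 and -3.39), and none at 0. Their part in the *Il15ra* difference was not tested.

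*Il4ra*, the IL-4 and IL-13 receptor chain (gene ID 16190, chromosome 7 from 125552271 to 125579474), had 275 and 244 CPM in CD4+Lrig1+ and 346 and 378 CPM in CD4+Lrig1- T cells. The groups did not overlap, and the log2 difference was -0.48 ± 0.33. *Il21r*, which lies 23777 bases from *Il4ra* and encodes the IL-21 receptor (gene ID 60504, chromosome 7 from 125603252 to 125634397), had 281 and 261 CPM against 255 and 260 CPM. Its lowest CD4+Lrig1+ and highest CD4+Lrig1- values were nearly equal, and the log2 difference was 0.07 ± 0.31. B cells also carry both receptors. *Il4ra* had a log2 ratio of -0.34 in set 1 and -0.63 in set 2, and the 10 B cell markers, of which 7 were lower in both sets and none was at 0, had a median log2 ratio of -0.08 and -1.13. Their part in the difference was not tested.

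In edgeR's quasi-likelihood test, adjusted over the 16123 genes, 0 of the 8 receptor genes passed an adjusted p of 0.05, as did 0% of all genes. At an unadjusted p under 0.05, *Il2ra*, *Il2rb* and *Il9r* passed, all higher, beside 4.18% of all genes higher and 1.41% lower. The adjusted p was 0.501 for *Il2ra*, 0.612 for *Il2rb*, 0.635 for *Il9r* and 0.902 for *Il7r*, and 1.00 for the other 4. By DESeq2's Wald test *Il2ra* (adjusted p = 2.06e-10), *Il2rb* (0.00102) and *Il9r* (0.0315) were called, beside 1.63% of genes called higher and 0.31% called lower, and *Il7r* was not (0.392). EdgeR's exact test called *Il2ra* and *Il2rb*, beside 1.22% of genes higher and 0.105% lower. With the deposited table entered as a block in the quasi-likelihood test, which leaves 1 residual degree of freedom, 6 receptor genes were called. *Il2ra* and *Il2rb* (adjusted p = 3.39e-05 for each), *Il9r* (3.95e-05) and *Il15ra* (0.00660) were called higher, and *Il7r* (0.00140) and *Il4ra* (0.0103) were called lower, beside 14.6% of all genes called higher and 12.8% called lower. *Il2rg* (adjusted p = 0.352) and *Il21r* (0.570) did not pass. Without the block, *Il2ra* alone of the 8 was called when the CD4+Lrig1+ library of set 2 (adjusted p = 0.0342, beside 0.245% of all genes called higher) or the CD4+Lrig1- library of set 1 (0.0314, beside 0.523%) was left out.

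By size alone, *Il2ra*, *Il2rb* and *Il9r* were at least 2-fold higher in both sets, or 3 of 8 beside 7.37% of all genes, and 0 of 8 were at least 2-fold lower, beside 3.01%. At least 1.5-fold apart were *Il15ra* too, making 4 higher beside 11.7% of all genes, and *Il7r*, the 1 lower beside 7.02%. The groups did not overlap for 6 of 8 receptor genes, 4 higher and 2 lower, beside 26.1% of all genes, 14.3% higher and 11.8% lower. The median log2 difference of the 8 was 0.39, against -0.04 for all genes tested.

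**Figure D2:**
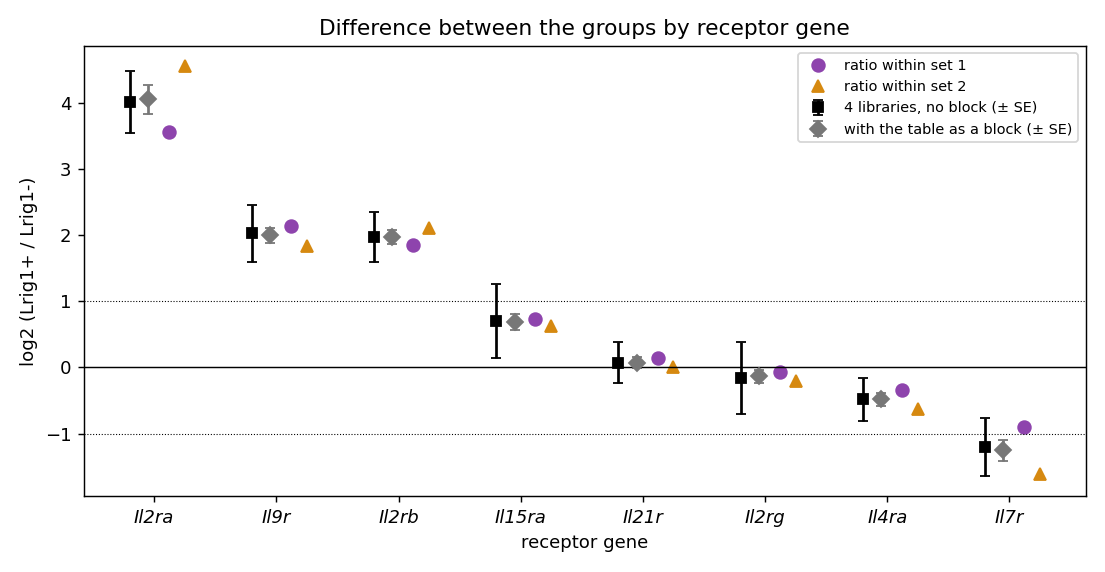
Log2 of the CD4+Lrig1+ level over the CD4+Lrig1- level for each receptor gene, from the 4 libraries without a block (black, ± SE), with the table as a block (grey, ± SE), and within set 1 (purple) and set 2 (orange). The dotted lines mark a 2-fold difference. The genes run from *Il2ra* at 4.01 to *Il7r* at -1.20, and the standard errors are wider without the block.

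Levels of different genes were compared per transcript length, as FPKM within a library, and here the leading gamma chain partner differed between the groups. The FPKM of all transcripts summed to 385076 (CD4+Lrig1+) and 374165 (CD4+Lrig1-) in set 1 and to 591966 and 598247 in set 2. FPKM levels are therefore not on a common scale across the sets, and whether the sets differ by transcript length was not tested. Among the 5 chains that pair with the gamma chain, *Il2rb* took 54.9% and 61.1% of the summed FPKM in CD4+Lrig1+ libraries but 19.9% and 17.3% in CD4+Lrig1- libraries. *Il7r* took 17.5% and 11.0% against 43.4% and 42.5%. *Il2rb* led in both CD4+Lrig1+ libraries and *Il7r* in both CD4+Lrig1- libraries. The share of *Il21r* was 17.5% and 18.2% against 21.3% and 22.6%, that of *Il4ra* was 8.96% and 8.79% against 15.1% and 17.2%, and that of *Il9r* was at most 1.21% in any library.

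Within the 3 IL-2 receptor chains, *Il2ra* made up 11.5% and 9.90% of the summed FPKM in CD4+Lrig1+ and 1.64% and 0.588% in CD4+Lrig1- libraries. *Il2rb* made up 45.3% and 34.8% against 20.8% and 10.9%. The gamma chain was therefore the larger part in CD4+Lrig1- libraries, with 77.6% and 88.5%, against 43.2% and 55.3% in CD4+Lrig1+ libraries. Per unit of *Il2rb* FPKM there was 0.955 and 1.59 of *Il2rg* FPKM in CD4+Lrig1+ and 3.74 and 8.12 in CD4+Lrig1- libraries. *Il2rg* and *Il2rb* were close in level in the CD4+Lrig1+ libraries and changed places between the sets, so their order was not fixed there. Per unit of *Il2ra* FPKM there was 1.26 and 0.632 of *Il7r* FPKM in CD4+Lrig1+ and 27.6 and 45.5 in CD4+Lrig1- libraries.

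**Figure D3:**
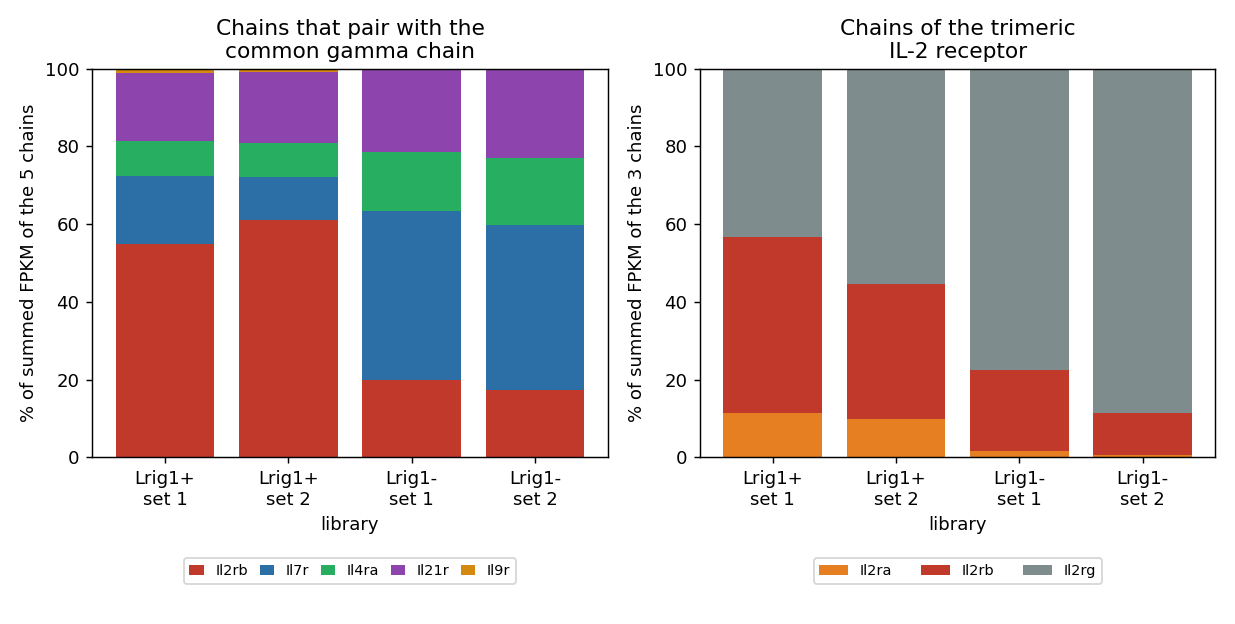
Share of summed FPKM in each library of the 5 chains that pair with the common gamma chain (left) and of the 3 chains of the IL-2 receptor (right). *Il2rb* is the largest partner in CD4+Lrig1+ libraries (54.9% and 61.1%) and *Il7r* in CD4+Lrig1- libraries (43.4% and 42.5%), and *Il2ra* reaches 11.5% and 9.90% of the 3 chains in CD4+Lrig1+ libraries only.

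In FPKM the order of the 8 genes was the same in both CD4+Lrig1- libraries, from *Il2rg* (319 and 510 FPKM) through *Il7r* (186 and 154), *Il21r* (91.1 and 81.9), *Il2rb* (85.4 and 62.8), *Il4ra* (64.8 and 62.1), *Il2ra* (6.74 and 3.38) and *Il15ra* (3.92 and 2.39) to *Il9r* (1.37 and 1.21). *Il2rb* and *Il4ra* were neighbours that nearly met in set 2, and the ranges of *Il21r* and *Il2rb* overlapped between the sets. In the CD4+Lrig1+ libraries *Il2rb* had 315 and 299 FPKM and *Il2rg* 301 and 475, ahead of *Il21r* (101 and 88.9), *Il7r* (100 and 53.8), *Il2ra* (79.9 and 85.1) and *Il4ra* (51.5 and 43.0), with *Il9r* (6.93 and 4.89) and *Il15ra* (6.40 and 4.50) last. *Il2ra* and *Il7r* changed places between the sets, and *Il9r* and *Il15ra* did not differ beyond their spread. Among all genes tested, *Il2ra* stood at FPKM percentile 95.8 and 94.9 in CD4+Lrig1+ and 54.2 and 46.1 in CD4+Lrig1- libraries, whereas *Il2rg* stood between 99.0 and 99.1 in all 4.

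The annotated transcripts bore on how firmly each gene was measured. *Il2ra* has 1 listed transcript. The main curated transcript held 55.3% to 65.8% of *Il2rb* FPKM, 73.8% to 92.8% of *Il2rg*, 81.4% to 88.2% of *Il7r*, 70.7% to 79.8% of *Il4ra* and 90.9% to 95.6% of *Il21r* in the 4 libraries. For these genes most FPKM was thus on 1 transcript in either group. Of the estimated *Il2rb* counts, its main transcript held 56.4% and 51.4% in CD4+Lrig1+ and 49.7% and 45.1% in CD4+Lrig1- libraries. *Il9r* was split differently in the sets. Its predicted variant X1 held 45.4% and 76.9% of *Il9r* FPKM in the CD4+Lrig1+ and CD4+Lrig1- libraries of set 1 but 5.6% and 6.4% in set 2, where variant X7 held 46.6% and 51.3%. *Il15ra*, with 23 listed transcripts, was divided in a similar way, and its curated variant 1 held 32.8% and 38.1% of the FPKM in set 1 and 10.8% and 5.7% in set 2. The gene sums of *Il9r* and *Il15ra* do not depend on this split, whereas their FPKM values, which divide by transcript length, do.

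The pathway around these receptors was read from 54 genes listed by role, of which 50 passed the filter on low counts. In the quasi-likelihood test 0 of the 50 were called. With the table as a block 16 were called higher and 13 lower, beside 14.6% and 12.8% of all genes. At least 2-fold higher in both sets were 9, beside 7.37% of all genes, and 0 were at least 2-fold lower, beside 3.01%. The median log2 difference of the 50 was -0.07, close to that of all genes.

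Of the 8 cytokine ligands, *Il2* and *Il21* were higher in CD4+Lrig1+ T cells and *Il9* was at 0 in all libraries. *Il21*, the ligand of *Il21r* and a product of follicular helper T cells, had 9.88 and 20.9 CPM in CD4+Lrig1+ and 1.21 and 3.06 CPM in CD4+Lrig1- T cells (adjusted p with the block = 2.98e-05). *Il2* had 1.73 and 2.96 CPM against 0.42 and 0.35, from 90 and 170 estimated counts against 20 and 19 (adjusted p with the block = 0.00393). Among the tested ligands the groups did not overlap for *Il2*, *Il21* and *Il4*, each higher in CD4+Lrig1+, beside 14.3% of all genes. *Il4* had log2 ratios of 0.27 and 0.55 and *Il15* of 0.02 and -0.44, neither past the test, and *Il7*, *Il9*, *Il13* and *Tslp* were too low to be tested. *Crlf2*, the receptor chain that pairs with *Il7r* for TSLP, had 49.1 and 52.9 CPM against 33.5 and 34.3 (adjusted p with the block = 0.00220). *Il13ra1*, which pairs with *Il4ra*, had log2 ratios of -0.14 and 0.57 and was not called. The block fit called 14.6% of all genes higher. Without the block *Il21* (adjusted p = 0.674), *Il2* (0.663) and *Crlf2* did not pass the quasi-likelihood test.

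Of the 7 kinases and STATs, *Jak3* and *Stat5a* were called higher and *Jak1* lower with the block, each by less than 2-fold. The same fit called 14.6% of all genes higher and 12.8% lower. *Jak3*, the kinase bound to the gamma chain, had 361 and 168 CPM in CD4+Lrig1+ and 229 and 102 CPM in CD4+Lrig1- T cells, log2 ratios of 0.66 and 0.72. *Jak1* had log2 ratios of -0.29 and -0.43, and *Stat5a* of 0.57 and 0.43. *Stat3*, *Stat5b* and *Stat6* did not pass, with log2 ratios between -0.03 and 0.16. Of the 9 adaptor and PI3K or MAPK genes, 4 were called lower with the block and 0 higher, beside 12.8% and 14.6% of all genes. Among the 4 were *Pik3cd*, a catalytic PI3K subunit (-0.52 and -0.81), and *Pik3r1*, a regulatory one (-0.24 and -0.35). The adaptor *Grb2* (-0.13 and -0.07) was not called.

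Feedback inhibitors of cytokine signalling were led by *Cish* and *Socs2*, both at least 2-fold higher in each set. *Cish*, a STAT5-induced inhibitor, had 155 and 137 CPM in CD4+Lrig1+ and 51.6 and 33.5 CPM in CD4+Lrig1- T cells, and *Socs2* had 26.4 and 26.5 CPM against 8.12 and 4.48. *Socs1* had log2 ratios of 0.60 and 0.85. These 3 of 6 were called higher with the block, beside 14.6% of all genes. *Socs3*, *Ptpn2* and *Ptpn6* were not called, with log2 ratios from -0.09 to -0.27. Of the 12 STAT5 and survival targets, 6 were called higher and 2 lower with the block, beside 14.6% and 12.8% of all genes. The list does not say which of these genes STAT5 raises or lowers, so the counts do not measure STAT5 activity. *Foxp3*, which specifies Treg cells, led them (3.59 and 4.33), followed by the survival gene *Bcl2l1* (1.02 and 1.31) and the lymphotoxin gene *Lta* (1.09 and 1.09). *Bcl2*, also a survival gene and known to respond to IL-7, was called lower (-0.39 and -0.59). The kinase gene *Pim1* was called higher (0.79 and 0.69), whereas the related *Pim2* was called lower (-0.26 and -0.44). *Bcl6* (0.98 and 0.93) and *Myc* (0.52 and 0.35) were also called higher. *Mcl1* (-0.12 and -0.14) and *Ccnd2* (-0.11 and -0.16) were not called. The pair of survival genes *Bcl2l1* and *Bcl2* had opposite signs.

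Of the 10 transcription factors listed as acting on *Il7r*, *Il2ra* or *Il2rb*, 2 were called higher and 6 lower with the block. Of all genes, 14.6% were called higher and 12.8% lower. *Gfi1*, a repressor of *Il7r*, had 48.9 and 30.7 CPM in CD4+Lrig1+ and 19.3 and 9.85 CPM in CD4+Lrig1- T cells. *Eomes*, which acts on *Il2rb* and is also on the NK cell marker list, had 24.1 and 41.3 CPM against 4.20 and 9.18, while the other 8 NK cell markers had lower CPM in the CD4+Lrig1+ library of each set. *Tbx21*, on the same list of transcription factors, went the other way. It had log2 ratios of -0.61 and -0.56 and was called lower with the block. *Foxo1*, an activator of *Il7r*, had log2 ratios of -0.33 and -0.43, and *Klf2* and *Tcf7*, which are also on the naive T cell list, had -0.56 and -0.53 and -0.65 and -0.76. *Ets1* (-0.14 and -0.47) and the ETS family gene *Gabpa* (-0.11 and -0.24) did not pass.

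**Figure D4:**
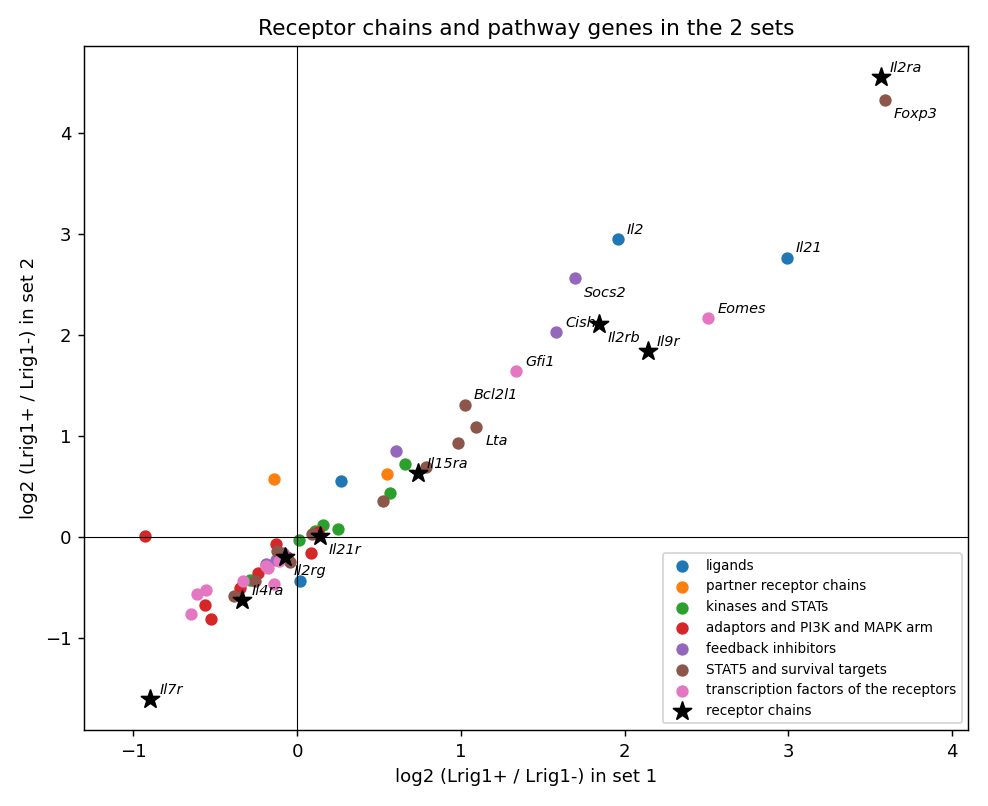
Log2 of the CD4+Lrig1+ level over the CD4+Lrig1- level in set 1 (horizontal) and set 2 (vertical) for the 8 receptor genes (black stars) and the 50 tested pathway genes, coloured by role. The receptors and the 9 pathway genes at least 2-fold higher in both sets are named, and *Il2ra* lies beside *Foxp3* at the upper right while *Il7r* is the lowest point in set 2.

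Among the 8831 genes with a mean of at least 10 CPM, the profiles over the 4 libraries closest to *Il2ra*, by Euclidean distance of centred log2 CPM, were those of *Foxp3* (0.16), *Synpo* (0.26) and *Tiam1* (0.36). The closest to *Il2rb* were *Fam129a* (0.14), *Vill* (0.19) and *Egr2* (0.22), and the closest to *Il7r* were *Fam78a* (0.13), *Sgk1* (0.19) and *Pdk1* (0.21). These are descriptions over 4 libraries, in which many genes share the same order. The Treg markers moved with *Il2ra* as a list, since all 5 were at least 2-fold higher in both sets and they summed to 2020 and 1717 CPM in CD4+Lrig1+ against 207 and 140 CPM in CD4+Lrig1- libraries. *Il2ra* is itself on that list, and the part of Treg cell share in its difference was not tested.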

How the data were processed

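The authors sequenced RNA of CD4+ T cells sorted by Lrig1 from the spleen, trimmed the paired reads with Trimmomatic 0.38, mapped them with HISAT2 2.1.0 and quantified them with StringTie 2.1.3b, and the submitters' processing notes name GRCm38. The estimated counts, made by the authors per RefSeq transcript and library, are unnormalized as deposited. The FPKM values, deposited beside them, are scaled by the authors to transcript length and library. Another deposited table, with 6 per-sample columns, was left out because its headers do not say which cells were Lrig1+. TPM columns were not used.

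Counts, whole numbers in the tables, were summed per gene over 129299 transcripts. In R 4.3.3, 16123 genes passed filterByExpr and were tested with TMM and the quasi-likelihood test of edgeR 4.0.16, group only, with Benjamini-Hochberg adjustment over all of them. Standard errors were calculated back from the test, as the size of the fitted log2 difference divided by the square root of the quasi-likelihood F statistic. A prior count of 2 was added for ratios inside a set. The alternatives were the table as a block, DESeq2 1.42.0, its size factors, edgeR's exact test, other count filters, curated transcripts only, removal of immunoglobulin genes, limma 3.58.1 on log2 FPKM with 1 or 0.1 added, other fold limits and leaving out each library. A robust quasi-likelihood fit was chosen after seeing the data. Precision is limited by 2 libraries per group.

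Genes named were the 8 receptors, *Lrig1*, pathway genes at least 2-fold apart in both sets or among the most abundant of their role, marker lists, and the 3 genes nearest in profile to *Il2ra*, *Il2rb* and *Il7r*. *Jak3*, *Stat3*, *Stat5a*, *Stat6*, *Socs1*, *Pim1*, *Pim2*, *Bcl6*, *Myc*, *Klf2*, *Gabpa*, *Tbx21*, *Cd4* and the other marker genes named singly fall outside that rule. They were chosen for their known function or their call after their values were seen, and neighbours of the receptors were chosen by position. The receptors and all lists were chosen with earlier results of these data known. Markers of Treg, T, B, NK, CD8, myeloid, innate lymphoid and mast, plasma, erythroid and naive T cells were summed.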

Additional observations from a re-analysis of the deposited data

How the results depend on the processing

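Of 168 values from the alternatives, 135 were rated the same as the main result, 19 stronger, 0 weaker and 2 reversed, and 12 counts moved. A gene was rated the same if it kept its direction and its side of the threshold. Counts were rated the same if equal or within 1.5-fold, and the *Il2ra* to *Il7r* contrast if it kept its sign. The table as a block called 6 receptor and 29 pathway genes, beside 14.6% of all genes higher and 12.8% lower. Without the block 0 and 0 were called. A robust fit with the block, chosen after seeing the data, also called 6 and 29. In this robust quasi-likelihood fit the adjusted p was 0.0136 for *Il2ra*, against 3.39e-05 in the plain block fit. For *Il7r* it was 0.00758 against 0.00140, and for *Il2rb* 3.17e-05 against 3.39e-05. In both block fits the log2 difference was 4.05 for *Il2ra*, 1.98 for *Il2rb*, 2.0 for *Il9r*, 0.69 for *Il15ra*, -1.25 for *Il7r* and -0.48 for *Il4ra*. The columns carry no replicate numbers, and the deviations of the 2 libraries of a table from their group means correlated at 0.883 across genes, which is a hint from the data and not from the design. The block changed no call of *Il2rg* or *Il21r*. DESeq2's Wald test called 3 receptor genes, *Il2ra* (3.98), *Il2rb* (1.95) and *Il9r* (2.0), and 5 pathway genes, and edgeR's exact test called 2, *Il2ra* (4.01) and *Il2rb* (1.97), and 1 pathway gene. At least 1.5-fold in both sets in place of 2-fold gave 5 receptor genes, 4 higher and 1 lower, in place of 3, all higher.

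Leaving out each library in turn gave 0 to 1 receptor genes and 0 to 1 pathway genes called. The log2 difference ranged from 3.66 to 4.51 for *Il2ra*, 1.87 to 2.13 for *Il2rb*, 1.60 to 2.36 for *Il9r*, 0.14 to 1.25 for *Il15ra*, 0.05 to 0.12 for *Il21r*, -0.54 to -0.40 for *Il4ra* and -1.61 to -0.87 for *Il7r*. For *Il2rg* it ranged from -0.58 to 0.36, and it was 0.21 when set 1 lost its CD4+Lrig1+ library and 0.36 when set 2 lost its CD4+Lrig1- library. In these fits a lone library is assumed to vary like the other group. The cause of these shifts was not tested. The log2 contrast of *Il2ra* with *Il7r* was 5.31 with DESeq2's size factors, with FPKM and with curated transcripts only. The low levels of *Il2*, *Il4* and *Il15* limit what can be said of the ligands.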

Other observations

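The genes next to the receptors were also read. *C1qtnf6*, 11724 bases from *Il2rb*, had a log2 ratio of 2.85 within set 1 and 3.32 within set 2, and *Kctd17* on its other side had 1.54 and 1.84, so both tested neighbours of *Il2rb* were higher in CD4+Lrig1+ T cells, as *Il2rb* was. With the table as a block the adjusted p of edgeR's quasi-likelihood test was 2.98e-05 for *C1qtnf6* and 7.70e-05 for *Kctd17*, and without it 0.501 and 0.654. Around *Il2ra*, *Il15ra* lies 11977 bases away with 0.74 and 0.63, and *Rbm17*, 39.6 kb to the other side, had -0.06 and -0.18.

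*Spef2*, the tested neighbour 48.3 kb from *Il7r*, had log2 ratios of -0.68 and -1.44, the same sign as *Il7r*, whereas *Capsl*, 40.1 kb to the other side, had 1.62 and 1.64. *Snrnp25*, which lies 131 bases from *Il9r*, had 0.50 and 0.48, against 2.14 and 1.83 for *Il9r* itself. On the other side *Gm12108*, 86.3 kb away, had 21 and 23 counts in the CD4+Lrig1+ against 1 and 1 in the CD4+Lrig1- libraries. These neighbours were chosen by position, and no relation between them and the receptors was tested.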
